A study of Mus musculus with 6 samples.

Results

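The natriuretic peptide system of the mouse left ventricle was examined through 8 named genes: the peptide genes Nppa, Nppb and Nppc, the processing enzymes Corin and Furin, and the receptors Npr1, Npr2 and Npr3. They were found by symbol. 7 of the 8 were among the 24602 genes of the expression table, each as a single record, and Nppc was not analysed here. The libraries came from wild-type mice, 3 after transverse aortic coarctation (TAC) and 3 after a sham operation, all sampled 5 weeks after surgery. Narrowing the aorta raises the pressure against which the left ventricle pumps. Poly(A) RNA of the left ventricle was sequenced. No drug or further allele is named in the labels. The labels number the samples within a group but do not say that every sample is a different animal. The p-values therefore rest on a spread between libraries that could be technical.

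Cardiac natriuretic peptides are hormones that muscle cells release when the heart wall is stretched, and they lower blood pressure and blood volume. Nppa encodes the precursor of atrial natriuretic peptide, made mainly in the atria of the healthy adult heart, and Nppb encodes that of B-type natriuretic peptide, a widely used blood marker of heart failure. Corin is a membrane serine protease that cleaves the Nppa precursor at the muscle cell surface, and furin is a convertase of the secretory pathway that cleaves the Nppb and Nppc precursors. Npr1 and Npr2 encode receptors that make cyclic GMP when a peptide binds, Npr1 for the products of Nppa and Nppb and Npr2 for that of Nppc. Npr3 encodes the clearance receptor, which has no cyclase domain and takes peptides up for breakdown.

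Library totals ran from 64023153 to 69992502 estimated counts. Testing used edgeR's quasi-likelihood test on those counts for the 8795 genes with a mean FPKM, an abundance scaled by transcript length and library size, of at least 1, with Benjamini-Hochberg adjustment over all of them. A gene was called at an adjusted p under 0.05. In TAC 414 genes were higher and 201 lower, which became 176 and 459 after the trends of each library with GC content and length were taken out, and 174 and 338 with limma on log2(FPKM + 1). The median of all genes lay at -0.0086 on the log2 scale, and limma shifted it by -0.12. Records of the mitochondrial chromosome took 22.6% to 29.2% of the counts in TAC libraries and 14.8% to 19.2% in sham libraries, and their part in the results was not tested. Of 10 ventricular muscle markers 9 were tested and edgeR called 0, with 0 at an unadjusted p under 0.05 and 0 called by DESeq2. Hey2 was under the filter. Their summed level was nevertheless lower in every TAC library. It was 16489, 17276 and 13233 FPKM in TAC replicates 1, 2 and 3, against 18314, 21151 and 22126 FPKM in sham. Myh6, a myosin heavy chain gene, averaged 2843 FPKM in TAC and 4388 FPKM in sham (log2 fold change -0.47 ± 0.21, edgeR adjusted p = 0.189). Myl2, the ventricular myosin light chain gene, averaged 4141 FPKM in TAC and 5139 FPKM in sham, and Irx4, a ventricular transcription factor gene, averaged 16.2 FPKM in TAC and 21.9 FPKM in sham, while Tnnt2, cardiac troponin T, averaged 486 FPKM in TAC and 424 FPKM in sham. The log2 fold change was 0.48 ± 0.28 for Ryr2, -0.015 ± 0.14 for Actn2 and -0.00067 ± 0.16 for Mybpc3, so the lower sum was not shared by every marker. Fibroblast markers differed between the groups: 5 of 9 were called higher and none lower, and their summed level was 95.1, 92.2 and 202 FPKM in TAC replicates 1, 2 and 3, against 67.5 to 77.6 FPKM in sham.

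Both cardiac peptide genes lie on the plus strand of chromosome 4 in GRCm38. Nppb spans chr4:147985788-147987205 and Nppa chr4:148000722-148002079, with 13516 bases between them. Their promoters, from 250 bases before to 50 bases after the RefSeq start site, are shown because these are the members that rose. The RefSeq sequences are of GRCm38.p6, at chr4:148000472-148000771 for Nppa and chr4:147985650-147985949 for Nppb, whose deposited record begins before the RefSeq start site. Capitals mark every match, on either strand, to GATAA (the core bound by GATA factors), CATTCC (TEAD factors), AAGTG (Nkx2-5), GGTGTG (T-box factors) or TATAAA (the TATA box).
Nppa: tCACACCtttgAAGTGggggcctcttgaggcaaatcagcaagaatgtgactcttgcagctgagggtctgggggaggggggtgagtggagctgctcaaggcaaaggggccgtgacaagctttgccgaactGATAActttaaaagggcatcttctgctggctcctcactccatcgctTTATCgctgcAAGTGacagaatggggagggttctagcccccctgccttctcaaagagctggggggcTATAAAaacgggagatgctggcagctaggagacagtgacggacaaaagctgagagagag
Nppb: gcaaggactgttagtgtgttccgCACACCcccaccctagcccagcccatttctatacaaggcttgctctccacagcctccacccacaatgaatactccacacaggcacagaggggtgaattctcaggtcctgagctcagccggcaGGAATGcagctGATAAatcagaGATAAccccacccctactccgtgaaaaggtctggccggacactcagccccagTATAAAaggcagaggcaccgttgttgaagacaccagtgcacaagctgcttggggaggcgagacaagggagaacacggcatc

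Each of these promoters holds 2 GATAA matches, which 5.27% of the 32851 promoter windows of the RefSeq table do. In Nppb they stand on the same strand, beginning 94 and 83 bases before the start site, and the TEAD match begins 105 bases before it. In Nppa they begin 121 and 75 bases before the start site, the nearer on the other strand. Each promoter has 1 GGTGTG match, present in 19% of all windows, and 1 TATAAA match, present in 13.6%. The TATAAA match begins 31 bases before the RefSeq start site in Nppb but only 9 bases before it in Nppa. AAGTG occurs at 2 places in the Nppa window and at none in the Nppb window, against 46.4% of windows with at least 1, and CATTCC, found in 14.7%, occurs only in the Nppb window of this pair. An exact match to the CArG box, the site of serum response factor, is in neither window and in 1.63% of all. Runs that differ from it by a base were not counted, so a site for that factor may still be present. None of the windows of the other members, Nppc and both windows of Furin included, holds a GATAA match. Only 25.4% of all windows hold at least 1, so windows without a match are common. No binding was measured, and a match is only a run of letters.

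Of the 6 members tested, 2 rose in TAC, Nppa and Nppb, none fell and 4 were not called, where 4.71% of all tested genes were called higher and 2.29% lower. Npr3, with a mean FPKM of 0.202, fell under the filter and was read from a fit without one. The groups did not overlap in 4 of the 7 members. Nppa, Nppb and Npr3 were higher in every TAC library than in every sham library, and Furin was lower. Of the 23834 genes in the fit without a filter, 13.3% lay wholly higher and 11.1% wholly lower in TAC by counts per library scaled with TMM, and 11.4% and 11.7% by FPKM.

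**Figure D1:**
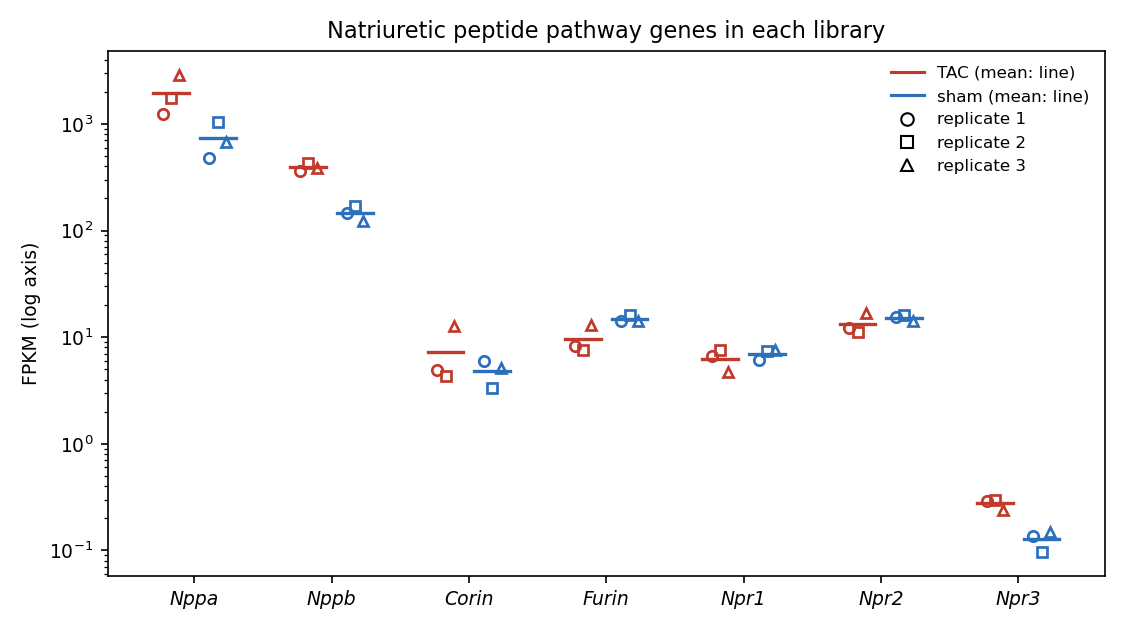
FPKM of the 7 members on a log axis in each TAC (red, left of each pair) and sham (blue, right) library; symbols give the replicate and lines the group means. Nppa, Nppb and Npr3 stand higher in all 3 TAC libraries than in all 3 sham libraries, and Furin stands lower.

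Nppa was the most abundant member in all 6 libraries. It measured 1229, 1740.3 and 2901 FPKM in TAC replicates 1, 2 and 3, against 481, 1042 and 681 FPKM in sham replicates 1, 2 and 3. All TAC libraries lay above all sham libraries, with TAC replicate 3 well above the rest and the closest pair being TAC replicate 1 and sham replicate 2. The means were 1957 ± 857 FPKM in TAC and 735 ± 284 FPKM in sham (SD, n = 3 each), and the log2 fold change was 1.54 ± 0.33 (SE; edgeR adjusted p = 0.0352), a fold of 2.91. The call depended on which libraries were in the fit. Leaving out TAC replicate 3 kept it (edgeR adjusted p = 0.0212, log2 fold change 1.24), in a fit that called 9.24% of tested genes higher, whereas leaving out any of the other 5 libraries in turn gave edgeR adjusted p between 0.0608 and 0.116, with log2 fold changes from 1.34 to 1.85.

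Of the exonic bases of Nppa, 61.5% lie under Gm13054, an antisense record on the minus strand. The library preparation marks strand, but the sources used here do not say whether the counting used it, so reads of the pair cannot be told apart with certainty. Gm13054 held 129, 245 and 284 estimated counts in TAC replicates 1, 2 and 3, against 21, 90 and 88 in sham, while Nppa held 71531, 111606 and 183762 in TAC and 29423, 62083 and 39478 in sham. Summing both records left the Nppa log2 fold change at 1.54 (edgeR adjusted p = 0.0352). For Gm13054 itself the log2 fold change was 1.78 ± 0.51 (edgeR adjusted p = 0.0679), and its FPKM was between 0.00163 and 0.00231 of that of Nppa in TAC, against 0.000719 to 0.00233 in sham.

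Nppb varied less within each group than Nppa. Its level was 361, 430.2 and 388 FPKM in TAC replicates 1, 2 and 3, against 147, 169.6 and 123 FPKM in sham. Every TAC library was higher than every sham library, and the lowest TAC value was well clear of the highest sham value. Means were 393 ± 35.0 FPKM in TAC and 146 ± 23.2 FPKM in sham (SD, n = 3 each). The log2 fold change of 1.58 ± 0.16 (edgeR adjusted p = 0.00861), a fold of 2.99, ranked 7 by p among all tested genes. It passed in each fit without 1 library, with edgeR adjusted p from 0.0018 to 0.0425. None of its exonic bases overlap another record. With the GC and length trends removed its log2 fold change was 1.21 (edgeR adjusted p = 0.0176).

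Nppa is also the classical gene of the atrial muscle cell, so 7 other atrial markers were set beside it, of which 6 were tested. EdgeR called 0 of them, 1 had an unadjusted p under 0.05, and DESeq2 called 1, Pam, higher. Their summed level was 104, 23.6 and 66.9 FPKM in TAC replicates 1, 2 and 3, against 34.9, 168 and 112 FPKM in sham. Of that sum, Myl7, the atrial myosin light chain gene, gave 60.7, 2.61 and 13.3 FPKM in TAC and 11.5, 99.3 and 69.0 FPKM in sham. Pam went the other way and gave 20.5, 18.9 and 43.6 FPKM in TAC and 17.6, 15.6 and 15.1 FPKM in sham. It was thus most of the sum in TAC replicates 2 and 3. Within sham the order of the libraries was the same for Nppa and for the atrial sum. Between the groups the atrial sums overlapped, while the Nppa values did not. TAC replicate 2 had the lowest atrial sum of the 6 and more Nppa than any sham library. Bmp10, an atrial growth factor gene, was listed at 0 in all 3 TAC libraries and in sham replicate 3, and at 0.178 and 3.74 FPKM in sham replicates 1 and 2.

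**Figure D2:**
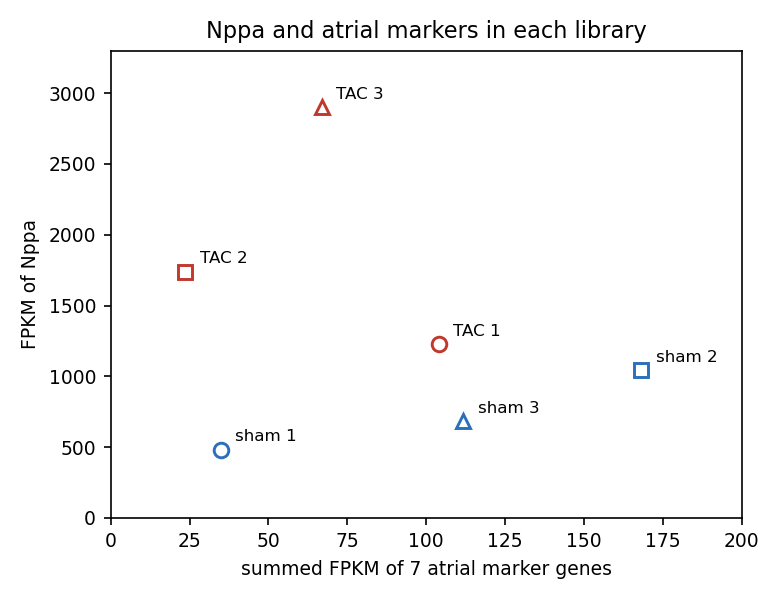
FPKM of Nppa against the summed FPKM of 7 atrial marker genes, 1 point per library (TAC red, sham blue). TAC replicate 2, with an atrial sum of 23.6 FPKM, has 1740.3 FPKM of Nppa, above the 1042 FPKM of sham replicate 2, whose atrial sum is 168 FPKM.

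Neither enzyme that cuts the precursors was called. Corin (chr5:72300025-72504473, minus strand) measured 4.91, 4.33 and 12.6 FPKM in TAC replicates 1, 2 and 3, against 5.96, 3.36 and 5.19 FPKM in sham. TAC replicate 3 was more than any other library, and the remaining TAC libraries lay inside the sham range. The log2 fold change was 0.69 ± 0.37 (edgeR adjusted p = 0.270) and 0.14 without TAC replicate 3 (edgeR adjusted p = 0.718). TAC replicate 3 was also the library with the highest summed level of fibroblast markers and of Nppa, and the part of the fibroblast markers in these values was not tested.

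Furin (chr7:80388585-80403322, minus strand) measured 8.20, 7.52 and 13.05 FPKM in TAC replicates 1, 2 and 3, against 14.3, 16.3 and 14.1 FPKM in sham. All TAC libraries were below all sham libraries, though TAC replicate 3 came close. The log2 fold change was -0.50 ± 0.18 and missed the threshold (edgeR adjusted p = 0.107). Without TAC replicate 3 it was -0.71 and passed (edgeR adjusted p = 0.00917), in a fit that called 10.1% of all tested genes lower. In each library Corin had less FPKM than Furin. The ratio of Corin to Furin, a comparison added after the values were seen, was 0.599, 0.575 and 0.966 in TAC replicates 1, 2 and 3, against 0.417, 0.206 and 0.369 in sham, so the groups did not overlap (exact 2-sided permutation p = 0.1, the smallest that 3 against 3 allows).

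The cyclase receptor genes were not called. Npr1 (chr3:90450591-90465866, minus strand) measured 6.64, 7.52 and 4.71 FPKM in TAC replicates 1, 2 and 3, against 6.09, 7.35 and 7.51 FPKM in sham. The groups overlapped, and only TAC replicate 3 lay below the sham range. The log2 fold change was 0.02 ± 0.22 (edgeR adjusted p = 0.969), and its sign was not stable, being -0.080 without a filter and -0.15 in limma on log2(FPKM + 1). Npr2 (chr4:43631935-43651244, plus strand) measured 12.1, 11.2 and 16.7 FPKM in TAC replicates 1, 2 and 3, against 15.5, 16.1 and 14.1 FPKM in sham. Here TAC replicate 3 was the highest library and the remaining TAC libraries the lowest. Its log2 fold change was -0.055 ± 0.14 (edgeR adjusted p = 0.844), turning to 0.055 with the GC and length trends removed. Overlapping antisense records cover 11.7% of the exonic bases of Npr1 and 5.7% of those of Npr2.

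The clearance receptor gene Npr3 (chr15:11839896-11907287, minus strand) was the scarcest member, at 0.292, 0.297 and 0.237 FPKM in TAC replicates 1, 2 and 3, against 0.138, 0.0970 and 0.148 FPKM in sham. Behind these stood 185, 208 and 164 estimated counts in TAC and 92, 64 and 94 in sham. Every TAC library lay above every sham library. In the fit without a filter the log2 fold change was 1.16 ± 0.30, a fold of 2.24, and it missed the threshold (edgeR adjusted p = 0.0814, unadjusted p = 0.00305). Called higher in that fit were 0.684% of 23834 genes. It also missed with a filter on counts instead of FPKM (edgeR adjusted p = 0.0551), where 3% of 15926 genes were called higher, and passed in DESeq2 (adjusted p = 0.0155), which without a filter called 4.88% of 23834 genes higher, and without TAC replicate 3 (edgeR adjusted p = 0.0449), where 1.46% were. In limma its difference on the log2(FPKM + 1) scale was 0.18, a scale that compresses genes this low. Endocardial cells are a known source of Npr3, and the summed level of 6 other endocardial markers was 32.5, 33.2 and 26.7 FPKM in TAC replicates 1, 2 and 3, against 35.1, 45.5 and 47.1 FPKM in sham. That sum was lower in all TAC libraries, with 0 of 5 tested markers called by edgeR, 2 at an unadjusted p under 0.05 and 1 (Smoc1) called by DESeq2. Endothelial markers did not go the same way. Their summed level overlapped, at 204, 199 and 147 FPKM in TAC replicates 1, 2 and 3, against 184, 169 and 160 FPKM in sham. Their median log2 fold change was 0.39, and edgeR called 1 of 8 higher (Tek), where 4.71% of all tested genes were. In RNA of whole tissue, fewer cells of a type and less RNA per cell cannot be told apart.

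**Figure D3:**
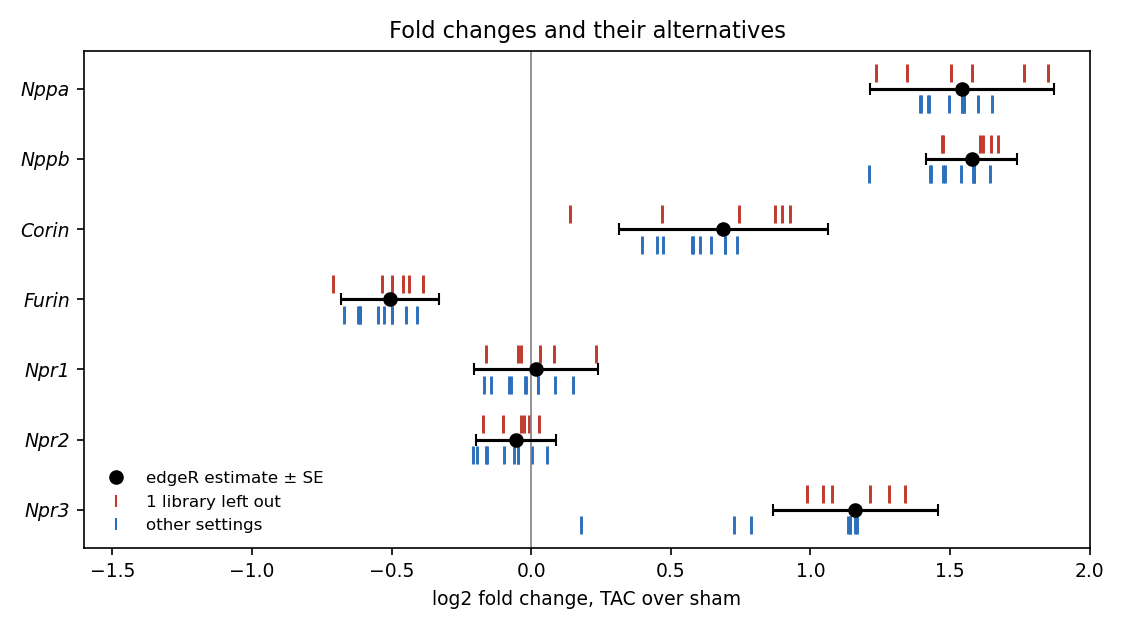
Log2 fold change, TAC over sham, of each member in edgeR (black point with its SE; Npr3 from the fit without a filter), with 1 library left out (red ticks) and under other settings (blue ticks). All ticks of Nppa and Nppb lie above 1.2, those of Furin lie below 0, and those of Npr1 and Npr2 fall on both sides of 0.

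Per unit of transcript length the members kept nearly the same order in both groups. In sham it ran Nppa, Nppb, Npr2, Furin, Npr1, Corin and Npr3 by mean FPKM, and Npr2 and Furin, at 15.2 ± 1.02 and 14.9 ± 1.20 FPKM (SD, n = 3 each), did not differ beyond their spread. In TAC the order was Nppa, Nppb, Npr2, Furin, Corin, Npr1 and Npr3. The 4 genes from Npr2 to Npr1, with means of 13.4, 9.59, 7.28 and 6.29 FPKM, overlapped each with the next. Both peptides were separate from all other members in both groups, as was Npr3.

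Ratios within a library, which do not depend on its scaling, asked whether the members moved together. Nppa over Nppb was 3.41, 4.05 and 7.47 in TAC replicates 1, 2 and 3, against 3.28, 6.14 and 5.53 in sham. The groups overlapped and their means were 4.97 ± 2.18 in TAC and 4.98 ± 1.51 in sham (SD, n = 3 each; exact permutation p = 1). The summed FPKM of Nppa and Nppb over that of the 3 receptors was 83.3, 114 and 152 in TAC, against 28.9, 51.4 and 36.9 in sham. That ratio was higher in every TAC library by 2.97-fold between geometric means.

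Npr3 over Npr1, clearance receptor to cyclase receptor, was 0.0440, 0.0396 and 0.0503 in TAC replicates 1, 2 and 3, against 0.0226, 0.0132 and 0.0198 in sham. All TAC ratios exceeded all sham ratios, and the geometric means differed 2.46-fold. By contrast Npr2 over Npr1 overlapped, at 1.83, 1.49 and 3.55 in TAC and 2.55, 2.19 and 1.88 in sham (exact permutation p = 0.9). Of these 4 planned ratios, peptides over receptors and Npr3 over Npr1 reached the smallest 2-sided p that 3 against 3 allows (exact permutation p = 0.1, Benjamini-Hochberg adjusted p = 0.2 over 4), so none could pass 0.05.

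**Figure D4:**
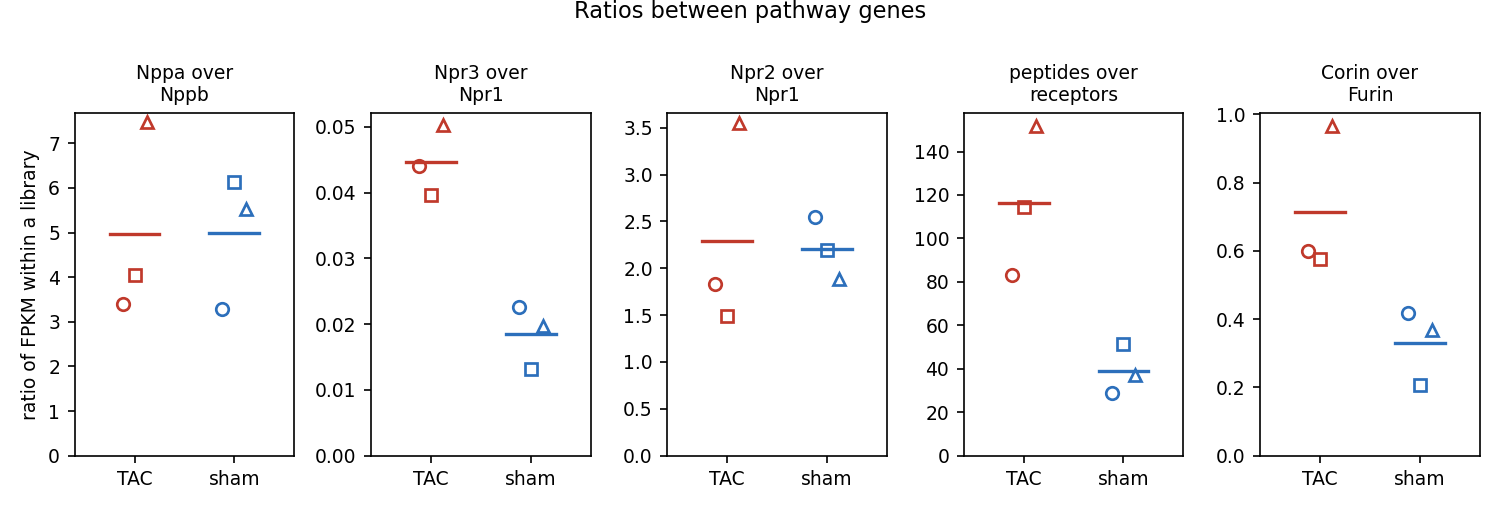
Ratio of FPKM within each TAC (red, left) and sham (blue, right) library for 5 pairs of members or sums; lines are group means and each axis starts at 0. Npr3 over Npr1, peptides over receptors and Corin over Furin do not overlap between groups, and Nppa over Nppb and Npr2 over Npr1 do.

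The neighbourhood of the peptide genes was read to see whether the change extended along the chromosome. Of 22 records within 200 kb of the pair, Nppa and Nppb included, 15 were tested. Among the 13 others edgeR called 0, DESeq2 called 2 (Mfn2 lower and Gm13054 higher, where it called 7.02% of tested genes lower and 11.7% higher), and 3 had an unadjusted p under 0.05 in edgeR. Their log2 fold changes had a median of -0.14, with 10 below 0 and 3 above. Clcn6, a chloride transporter gene next to Nppa, measured 2.04 FPKM in TAC and 2.51 FPKM in sham (log2 fold change -0.18 ± 0.28, edgeR adjusted p = 0.721). Mfn2, which encodes a protein of mitochondrial fusion, measured 139, 121 and 242 FPKM in TAC replicates 1, 2 and 3, against 277, 312 and 265 FPKM in sham (log2 fold change -0.64 ± 0.22, edgeR adjusted p = 0.101). Without TAC replicate 3, edgeR called Mfn2 and Clcn6 lower, in a fit that called 10.1% of all tested genes lower. On the other side of Nppb, Plod1, a collagen lysyl hydroxylase gene, had a log2 fold change of -0.072 ± 0.15 (edgeR adjusted p = 0.793). Rps19-ps3, a pseudogene whose reads may be shared with its parent gene, was at 0.75, and Chchd2-ps, also a pseudogene, was at -0.60. The records 2510039O18Rik, Fbxo44, Miip, Fbxo6, Mad2l2 and Agtrap lay between them.

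**Figure D5:**
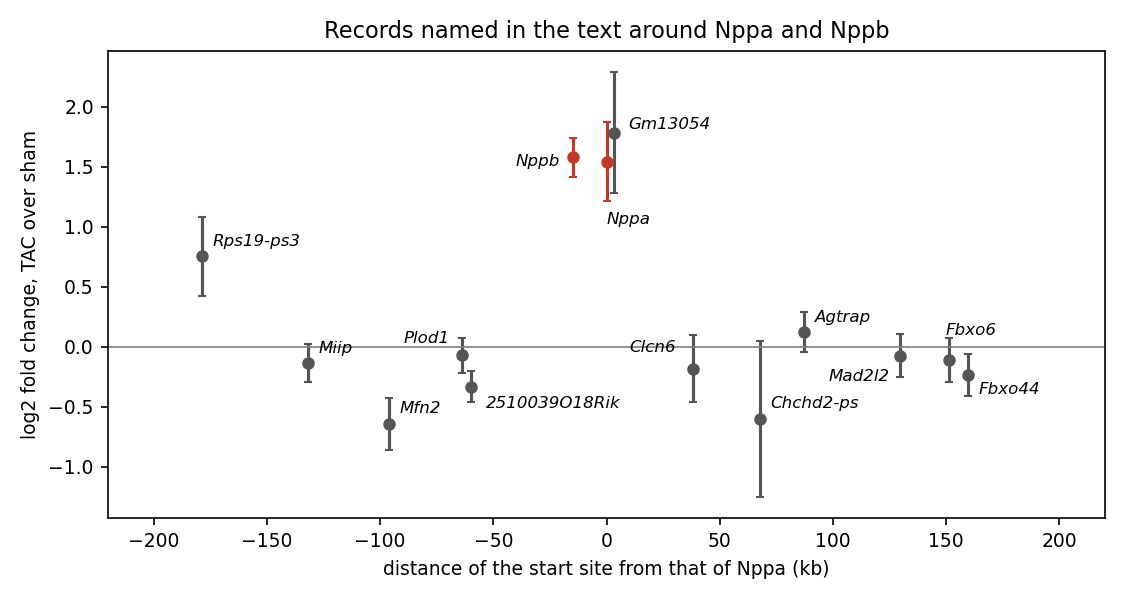
Log2 fold change, TAC over sham, with its SE, of the tested records named in the text around Nppa and Nppb (red), by the distance of each start site from that of Nppa in kb. Gm13054, whose exons overlap those of Nppa, lies at 1.78, and the others drawn in grey lie between -0.64 (Mfn2) and 0.75 (Rps19-ps3).

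Other genes of the pathway were counted from 3 lists. Of 55 genes 28 were tested, 2 rose, none fell and 26 were not called, with a median log2 fold change of -0.059, where 4.71% of all tested genes were called higher and 2.29% lower. With the GC and length trends removed, 1 of the 28 was called higher and 1 lower. Both risen genes were among 6 tested genes of peptide processing and clearance. Galnt1, a glycosyltransferase that starts O-linked sugar chains on secreted proteins, averaged 3.94 ± 0.817 FPKM in TAC and 2.14 ± 0.335 FPKM in sham (SD, n = 3 each), with a log2 fold change of 1.01 ± 0.20 (edgeR adjusted p = 0.0301). Ide, the insulin-degrading enzyme, which also cuts natriuretic peptides in vitro, averaged 5.19 ± 0.208 FPKM in TAC and 3.51 ± 0.196 FPKM in sham (log2 fold change 0.71 ± 0.14, edgeR adjusted p = 0.0314). The Ide call was kept without TAC replicate 3 (edgeR adjusted p = 0.00917) and lost without any other library (0.0647 to 0.138), and its log2 fold change was 0.21 with the GC and length trends removed (edgeR adjusted p = 0.444). Galnt1 was not called without sham replicate 2, sham replicate 3 or TAC replicate 1 (edgeR adjusted p of 0.125, 0.0865 and 0.0986), and its log2 fold change was 0.56 with the trends removed (edgeR adjusted p = 0.0493). Pcsk6, a convertase that activates corin in mice, averaged 19.7 ± 7.15 FPKM in TAC and 22.7 ± 1.24 FPKM in sham (edgeR adjusted p = 0.828). Mme, neprilysin, the main peptidase that degrades natriuretic peptides, was under the filter at 0.0701 FPKM in TAC and 0.0305 FPKM in sham. It held 45, 68 and 64 estimated counts in TAC replicates 1, 2 and 3, against 44, 15 and 15 in sham. Without a filter its log2 fold change was 1.25 and missed the threshold (edgeR adjusted p = 0.227).

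In the cyclic GMP list, downstream of the cyclase receptors, edgeR called 0 of 9 tested genes, 1 had an unadjusted p under 0.05 and DESeq2 called 1. That gene was Abcc4, a transporter that exports cyclic nucleotides (log2 fold change 0.61 ± 0.16, edgeR adjusted p = 0.0585). Pln, which encodes phospholamban, a target of cyclic nucleotide-dependent kinases, was the most abundant of the list at 414 FPKM in each group (log2 fold change 0.14 ± 0.14, edgeR adjusted p = 0.553). Pde2a, a phosphodiesterase stimulated by cyclic GMP, averaged 14.4 FPKM in TAC and 18.8 FPKM in sham (edgeR adjusted p = 0.622).

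Among 13 tested regulators of natriuretic peptide transcription edgeR called 0, 4 had an unadjusted p under 0.05, and DESeq2 called Tbx5 and Mef2d lower, where it called 7.02% of all tested genes lower. The median log2 fold change was -0.18, and the summed level of all 22 listed genes was 167, 178 and 215 FPKM in TAC replicates 1, 2 and 3, against 220.3, 282 and 246 FPKM in sham. Nkx2-5, a homeobox factor of heart muscle, averaged 44.0 FPKM in TAC and 61.5 FPKM in sham (log2 fold change -0.32 ± 0.19, edgeR adjusted p = 0.315). Gata4, a zinc finger factor that binds GATA sites such as those printed for Nppa and Nppb, averaged 30.3 FPKM in TAC and 46.4 FPKM in sham (log2 fold change -0.48 ± 0.17, edgeR adjusted p = 0.110). Without TAC replicate 3, edgeR called Gata4, Tbx5 and Mef2d lower, in the fit that called 10.1% of all tested genes lower. Not all regulators went down. Tead1 averaged 2.27 FPKM in TAC, with 4.02 FPKM in TAC replicate 3, and 1.31 FPKM in sham (log2 fold change 0.88 ± 0.39, edgeR adjusted p = 0.183). Of 9 regulators under the filter, 3 were wholly higher in TAC by FPKM, 0 wholly lower and 6 overlapped, where 11.4% of 23834 genes were wholly higher. The summed level mostly reflects the most abundant regulators.

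The genes with profiles most like the peptides were found by the root mean square difference of log2(CPM + 1), counts scaled by TMM to library size, over the 6 libraries, each gene centred on its mean. For Nppa they were Ccn5, a matricellular protein gene (0.27), Comp, a cartilage matrix protein gene (0.27), Gm13054 (0.30), Timp1, an inhibitor of matrix metalloproteinases (0.33), and Enah, an actin regulator (0.36). Nppb was at rank 17 with a difference of 0.44. Among the closest to Nppb were Fstl3, a follistatin-like inhibitor of activin (0.19), Prg4, lubricin (0.21), Timp1 (0.21) and Ccn5 (0.21), with Nppa at rank 193. Corin, Npr1, Npr2 and Furin were at ranks 1784, 5909, 3913 and 7832 of likeness to Nppa, and at 3313, 4356, 4657 and 8216 to Nppb.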

How the data were processed

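The authors deposited FPKM and estimated counts per gene for 6 libraries, per the file headers. StringTie 1.3.4d, HISAT2 2.0.4, cutadapt 1.9 and the build GRCm38 are named, per the submitters' processing notes. The sources used here do not give the annotation or how the count columns were made. The deposited estimated counts were already whole and were used as they stood.

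Groups follow the labels. Genes at a mean FPKM of at least 1 were scaled by TMM and tested with edgeR 4.0.16 (R 4.3.3). SEs are approximate, the log2 fold change divided by the root of F. Alternatives were other scalings and filters, DESeq2 1.42.0, limma 3.58.1 with pseudocounts of 1 and 0.1, a replicate block, lowess removal (span 0.3, 3 rounds) of GC and length trends from GENCODE M21, and leaving out each library. The fits were tested on simulated counts. Depth per library was 64023153 to 69992502.

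The members and lists were chosen with earlier results of these data known. Named were all members; called pathway genes, or up to 2 of the most abundant where none was called; tested neighbours within 200 kb; and the 5 most similar profiles; 2 genes that this rule names are not reported here. Npr3's alternatives, the count filter and the ratios of Corin to Furin and of Gm13054 to Nppa were added after the data were seen. Abcc4, Tbx5, Mef2d, Tead1, Pcsk6, Mme, Ryr2, Actn2 and Mybpc3 were named after their values were seen.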

Additional observations from a re-analysis of the deposited data

How the results depend on the processing

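The log2 fold changes of Nppa, Nppb, Corin and Furin kept their sign in the main fit and in every alternative counted here. Among the members, fits that joined the lack of a filter to another setting were read for Npr3 only. Nppb passed in 16 of 16 alternatives (1.21 to 1.67), and Nppa in 9 of 17, missing in limma (adjusted p of 0.0542 and 0.0551), without a filter (edgeR adjusted p = 0.0588) and without 5 of the 6 libraries. Corin passed in 0 of 16, Furin in 1 and Npr3 in 2 of 14. The 615 calls became 1648 in DESeq2, 183 with the replicate block and 285 without a filter, and ranged from 12 (without sham replicate 2) to 1705 (without TAC replicate 3) with 1 library left out. The 2 called members became 1 in limma with either pseudocount and without a filter, and 1 to 3 with 1 library left out (3, Furin added, without TAC replicate 3). The 2 pathway calls became 5 in DESeq2, 0 in limma with either pseudocount and without a filter, 1 with the replicate block, and 0 to 5 with 1 library left out. For the records near Nppa and Nppb, 0 calls became 2 in DESeq2, 1 with the replicate block and 0 to 2 with 1 library left out. The causes were not tested.

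Npr1 turned to -0.15 and -0.17 in limma (pseudocounts of 1 and 0.1), -0.020 with the replicate block, -0.080 without a filter, -0.021 at a mean FPKM of 0.5 or more and -0.073 with the filter on counts, and ranged from -0.16 to 0.23 with 1 library left out. Npr2 turned to 0.0029 with upper-quartile scaling and 0.055 with the trends removed, and ranged from -0.17 to 0.027 with 1 library left out. The log2 differences of the ratios ranged from -0.37 to 0.19 for Nppa over Nppb and from -0.41 to 0.22 for Npr2 over Npr1 with 1 library left out. Limma's pseudocount of 0.1 shifted the median of all genes by -0.15. The labels do not say that the replicate numbers pair the samples. Deviations of same-numbered samples correlated at -0.183, 0.193 and -0.144, against -0.315 to 0.341 for the other pairs. With 3 libraries per group these values cannot decide whether samples were paired, so the block is a check only. Npr3 had 64 to 208 counts a library; the part of depth in its result was not tested.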

Other observations

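Of 11 cyclic GMP genes under the FPKM filter, 3 (Gucy1b1, Prkg1 and Prkg2) were higher in every TAC library than in every sham library by FPKM and 8 overlapped, Gucy1a1 among them, where 11.4% of 23834 genes were wholly higher. The pattern was not particular to this list. Under the filter, 2 of 7 genes of peptide processing and clearance and 3 of 9 regulators were also wholly higher, and none wholly lower. Prkg2 was near the floor, with 20, 5 and 7 estimated counts in TAC replicates 1, 2 and 3 and 0 in each sham library. Gucy1b1, a subunit of the guanylyl cyclase that nitric oxide activates, measured 0.966, 0.730 and 1.13 FPKM in TAC replicates 1, 2 and 3, against 0.483, 0.538 and 0.365 FPKM in sham. With a filter on counts its log2 fold change was 1.05 (edgeR adjusted p = 0.0475), where 3% of 15926 genes were called higher, and without any filter it missed the threshold (edgeR adjusted p = 0.0723). Prkg1, the cyclic GMP-dependent protein kinase gene, measured 0.228, 0.168 and 0.240 FPKM in TAC replicates 1, 2 and 3, against 0.128, 0.0937 and 0.0628 FPKM in sham (log2 fold change 1.20 with the filter on counts, edgeR adjusted p = 0.0633). Gucy1b1, Prkg1 and Prkg2 were picked after their values were seen.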
